A study of Homo sapiens with 6 samples.

Results

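The 73 genes described here encode proteins of the mitochondrial ribosome, and their transcripts were compared between HepG2 cells, a human hepatoma line, given a water extract of Barringtonia racemosa leaves and untreated HepG2 cells. Members were the genes whose symbol begins with MRPL or MRPS followed by a number and at most 1 letter, taken from the array's transcript clusters (1 cluster stands for the probes of 1 transcript locus) that carry exactly 1 gene symbol and are above 0. Of 77 annotated genes with such a symbol, 73 were measured, among 18372 genes and 19291 clusters in all. The other 4, MRPL51, MRPS24, MRPS28 and MRPS6, shared their clusters with another symbol and were not analysed. Where a gene had several clusters, the one with the highest mean was used. This affected MRPL20 and MRPS18B, and their further clusters held identical values.

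The leaf-treated group had 3 arrays from cells exposed to the extract at 50 µg/ml for 24 h, and the untreated group had 3 arrays from cells without it. The labels name no vehicle or harvest time for the untreated cells. All cells were grown in DMEM with foetal bovine serum and antibiotics. Transcripts were measured from total RNA on Affymetrix Human Gene 1.0 ST arrays, and all levels below are log2 expression values as deposited, so that a difference of 1 is a doubling. The question was how the leaf extract altered the transcriptome of these cells.

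Mitochondria carry their own ribosome, which translates only the few proteins encoded by mitochondrial DNA, all of them core parts of the respiratory chain and ATP synthase. Its RNA comes from the mitochondrial genome, whereas every one of its proteins is encoded in the nucleus, made in the cytoplasm and imported. The large subunit (MRPL genes and a few others) joins amino acids, and the small subunit (MRPS genes) reads the messenger. Some of the proteins descend from the bacterial ribosome and others were added in mitochondria. Hepatocytes are rich in mitochondria, and nuclear genes of this kind are often described as targets of NRF1 and of the ETS family factor GABPA.

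Promoter sequences are shown first because some motifs occur in them more often than in the promoters of all tested genes, a property that the choice of genes did not use. RefSeq promoters of GRCh38.p14, from 250 bases before to 50 bases after each start, were held for 66 of the 73 members. MRPL2, MRPL10, MRPL13, MRPL15, MRPL21, MRPL23 and MRPL35 had no entry. Below stand the 150 bases before the start, 5′ to 3′ on the gene's strand, of the members with entries whose differences between the groups were among the clearest (MRPS25, MRPL19, MRPS18C and MRPL14), of MRPS23, one of the brightest of the lowest members, and of MRPL17, which differed the other way. Capitals mark the letters of the NRF1, ETS or YY1 motifs spelled out in the next paragraph.
MRPS25 (chr3:15065316-15065465, minus strand): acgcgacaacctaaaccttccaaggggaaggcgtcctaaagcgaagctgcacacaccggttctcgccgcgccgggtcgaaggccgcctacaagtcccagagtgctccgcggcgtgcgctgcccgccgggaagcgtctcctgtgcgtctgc
MRPL19 (chr2:75646633-75646782, plus strand): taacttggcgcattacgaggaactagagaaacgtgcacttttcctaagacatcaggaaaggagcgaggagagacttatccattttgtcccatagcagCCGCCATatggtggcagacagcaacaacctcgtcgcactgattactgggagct
MRPS18C (chr4:83455908-83456057, plus strand): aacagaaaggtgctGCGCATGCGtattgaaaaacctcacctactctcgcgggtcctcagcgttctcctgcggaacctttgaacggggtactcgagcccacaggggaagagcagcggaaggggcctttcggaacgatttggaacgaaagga
MRPL14 (chr6:44127309-44127458, minus strand): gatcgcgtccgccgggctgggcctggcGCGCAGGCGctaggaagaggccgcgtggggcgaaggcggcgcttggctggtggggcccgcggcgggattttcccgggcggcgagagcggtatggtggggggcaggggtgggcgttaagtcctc
MRPS23 (chr17:57850045-57850194, minus strand): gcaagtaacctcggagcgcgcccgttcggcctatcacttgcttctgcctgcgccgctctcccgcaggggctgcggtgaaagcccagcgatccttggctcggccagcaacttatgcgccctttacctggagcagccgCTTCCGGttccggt
MRPL17 (chr11:6683341-6683490, minus strand): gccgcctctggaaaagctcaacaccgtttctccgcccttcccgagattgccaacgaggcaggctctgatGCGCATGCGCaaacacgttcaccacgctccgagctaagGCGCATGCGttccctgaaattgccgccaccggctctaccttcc

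MRPL14 and MRPS18C each held 1 match to the NRF1 letters GCGCANGCG (CGCNTGCGC on the other strand), and MRPL17 held 3, of which 2 overlap. MRPS23 held the ETS letters CCGGAAG, read here on the other strand as CTTCCGG, close to the start. MRPL19 held the YY1 letters ATGGCGG on the other strand (CCGCCAT), and the stretch shown for MRPS25 held none of these. Over the whole 300 bases and both strands, the ETS letters were found in 28 of the 66 members (42.4%), against 14.6% of 14207 promoters of genes tested on the arrays and 10.7% of all 27305 promoters. In the members, the YY1 letters lay mostly after the start and so outside the bases printed above, as in MRPL1, MRPS10 and MRPS34. Their positions in other promoters were not counted. For the YY1 letters the counts were 23 members (34.8%), against 7.9% of the tested genes' promoters and 5.7% of all. The NRF1 letters occurred in 13 members (19.7%), against 11.4% and 8.0%. At least 1 of these 3 motifs, matches after the start included, was found in 49 members (74.2%), against 28.5% of tested genes' promoters and 20.8% of all. In contrast, the TATA box letters TATAAA occurred in 2 members (3.0%), against 9.0% of the tested genes' promoters. The palindromic E-box CACGTG was found in 6 members (9.1%), against 8.9% and 7.4%. Of the 12 members with an entry that were lower at an unadjusted p under 0.05 in the comparison that follows, 4 held the NRF1 letters, 6 the ETS letters and 4 the YY1 letters, against 9, 22 and 19 of the other 54 members. These are matches of letters and not measured binding, and the ETS and YY1 letters do not overlap with the NRF1 letters in the members shown.

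No member passed the test across all clusters. With limma, 0 of 73 had a Benjamini-Hochberg adjusted p under 0.05, where 1 of 19291 clusters (0.00518%) did, and the smallest adjusted p of a member was 0.351 (MRPS25). Values nevertheless lay mostly on one side: the log2 fold change, leaf-treated minus untreated, was negative for 62 of 73 members (84.9%), against 46.9% of all clusters. Most clusters are dimmer than the members, and of all clusters with a mean level from 7 to 8, 77.7% were negative. Counts by level are given further below. The members' median was -0.16, with quartiles of -0.28 and -0.08 and a range of -0.51 to 0.27, and the median over all clusters was 0.01. At an unadjusted p under 0.05, 15 members (20.5%) were lower in leaf-treated cells, against 5.9% of all clusters, and 0 were higher, against 3.87%. None was past the series' own limits, which asked for 1.5 fold or more besides an unadjusted p under 0.05 and which 0.57% of clusters passed as lower and 0.27% as higher. The lowest member was 1.42-fold lower and the highest 1.20-fold higher. RNA was pooled from each culture, so fewer cells with a transcript and less of it per cell cannot be told apart.

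The count of 15 depended on single arrays. It was 26 without leaf-treated array 2 (with 11.7% of all clusters lower in that fit), 8 without leaf-treated array 3 (3.8%), 6 without untreated array 1 (2.91%) and 7 without untreated array 3 (3.77%), so that the share over all clusters moved with it. After quantile normalization, which makes the 6 arrays equal in distribution, 7 members were lower and 3 were higher, against 5.38% and 4.57% of all clusters, and the members' median was -0.08. In every one of these fits, 0 members had an adjusted p under 0.05.

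**Figure D1:**
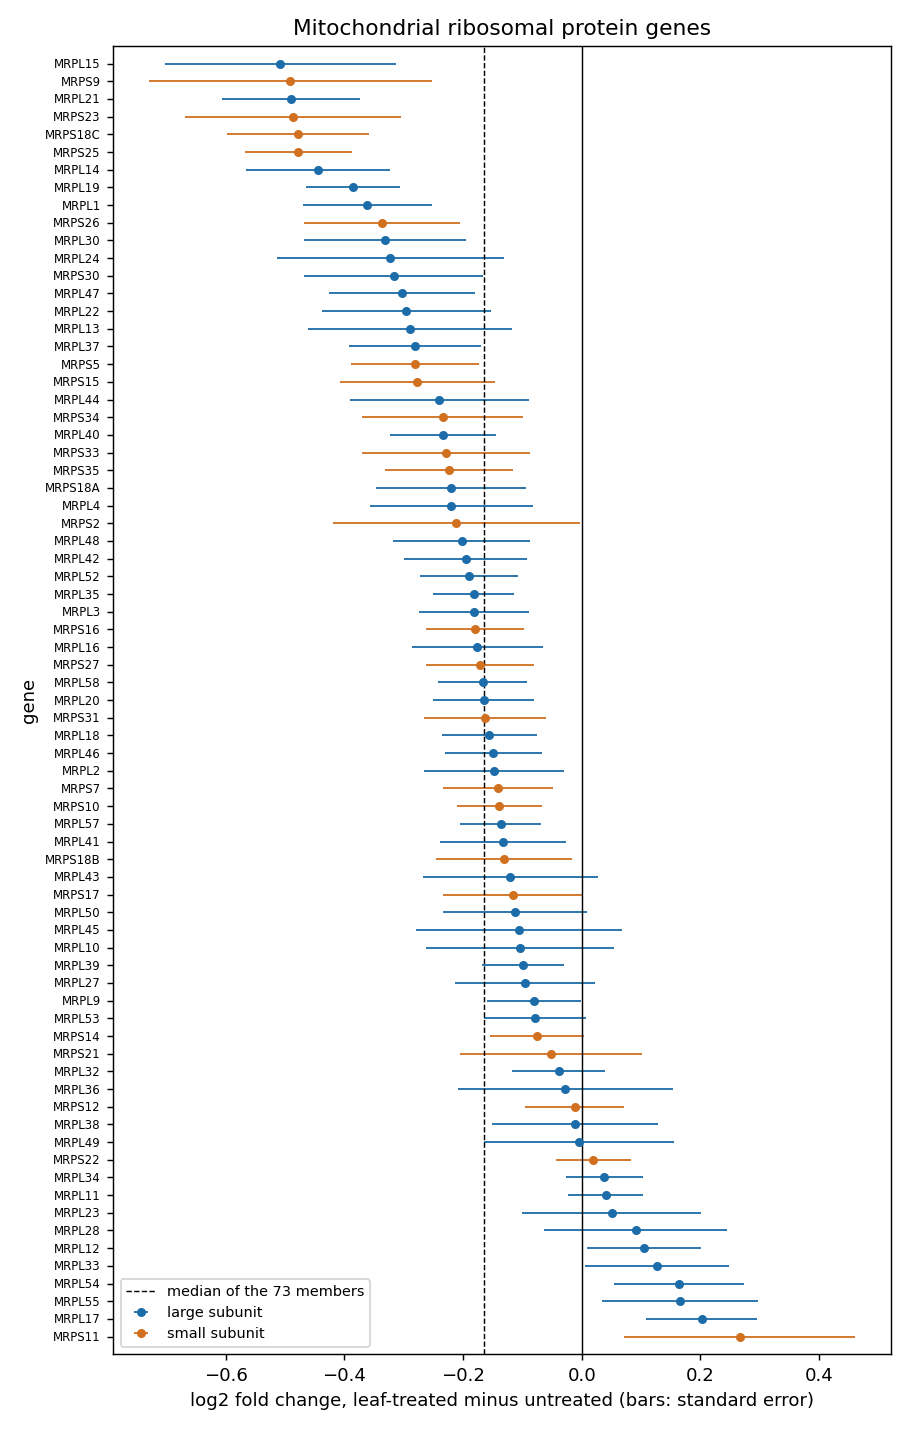
Log2 fold change (leaf-treated minus untreated, x axis) of each of the 73 members (y axis), with its standard error as a bar, blue for the large subunit and orange for the small subunit. The dashed line is the members' median of -0.16. Points of 62 members lie below 0, from MRPL15 at -0.51 upward, and MRPS11 lies highest at 0.27.

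Values were mostly negative in both subunits. The 50 large subunit members had a median of -0.15, with 41 negative values and 10 lower at an unadjusted p under 0.05, and the 23 small subunit members had a median of -0.18, with 21 negative values and 5 lower. Proteins with a bacterial counterpart (42 members, median -0.16, 34 negative and 10 lower) and those added in mitochondria (31 members, median -0.17, 28 negative and 5 lower) gave medians within 0.01 of each other. Of all clusters, 46.9% were negative and 5.9% were lower at that threshold, with larger shares among brighter clusters. The differences between these classes were not tested.

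Among small subunit members, MRPS25, a protein that mitochondria added to this subunit, gave the smallest p of all members. It measured 5.26, 5.46 and 5.34 on the leaf-treated arrays and 5.76, 5.77 and 5.97 on the untreated arrays. All leaf-treated values were below all untreated values, 1.39-fold lower in leaf-treated cells (log2 fold change -0.48 with a standard error of 0.09, limma adjusted p = 0.351). MRPS18C, the paralogue that takes the place of the bacterial S18 protein in the small subunit, measured 4.15, 4.28 and 4.07 in leaf-treated cells and 4.82, 4.70 and 4.41 in untreated cells. Its groups did not overlap either (log2 fold change -0.48 ± 0.12 SE, limma adjusted p = 0.406).

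MRPS23, another mitochondrial addition to the small subunit, measured 7.95, 8.54 and 7.93 in leaf-treated cells, against 8.80, 8.51 and 8.57 in untreated cells. Here the groups overlapped, because leaf-treated array 2 lay above untreated array 2 while leaf-treated arrays 1 and 3 were well below every untreated array (log2 fold change -0.49 ± 0.18 SE, limma adjusted p = 0.507). MRPS9, the counterpart of the bacterial S9 protein of the small subunit head, had values of 6.74, 7.01 and 6.03 in leaf-treated cells and 7.16, 7.003 and 7.09 in untreated cells. Its leaf-treated arrays were the most scattered of the lowest 8, with an SD of 0.51 against 0.08 in untreated cells, and it did not reach an unadjusted p of 0.05 (log2 fold change -0.49 ± 0.24 SE, limma adjusted p = 0.518).

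In the large subunit, MRPL21, counterpart of a bacterial protein of the same number, measured 6.63, 7.06 and 6.79 in leaf-treated cells and 7.38, 7.30 and 7.26 in untreated cells. MRPL14, which lies on the face turned towards the small subunit, measured 5.88, 6.20 and 6.32 in leaf-treated cells and 6.51, 6.63 and 6.60 in untreated cells. Groups were separate for both. MRPL21 was 1.40-fold lower in leaf-treated cells (log2 fold change -0.49 with a standard error of 0.12, limma adjusted p = 0.392), and MRPL14 was 1.36-fold lower in leaf-treated cells (log2 fold change -0.44 with a standard error of 0.12, limma adjusted p = 0.45). MRPL19, a conserved large subunit protein, measured 5.76, 5.84 and 5.73 in leaf-treated cells, against 6.19, 6.04 and 6.26 in untreated cells. It had the tightest leaf-treated values of these genes (SD 0.06) with no overlap (log2 fold change -0.39 ± 0.08 SE, limma adjusted p = 0.374).

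MRPL15 had the lowest log2 fold change of all members. Its values were 5.30, 6.001 and 5.31 in leaf-treated cells and 6.11, 5.93 and 6.09 in untreated cells. Leaf-treated array 2 lay inside the untreated range and the other leaf-treated arrays were far below it (log2 fold change -0.51 ± 0.19 SE, limma adjusted p = 0.507).

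**Figure D2:**
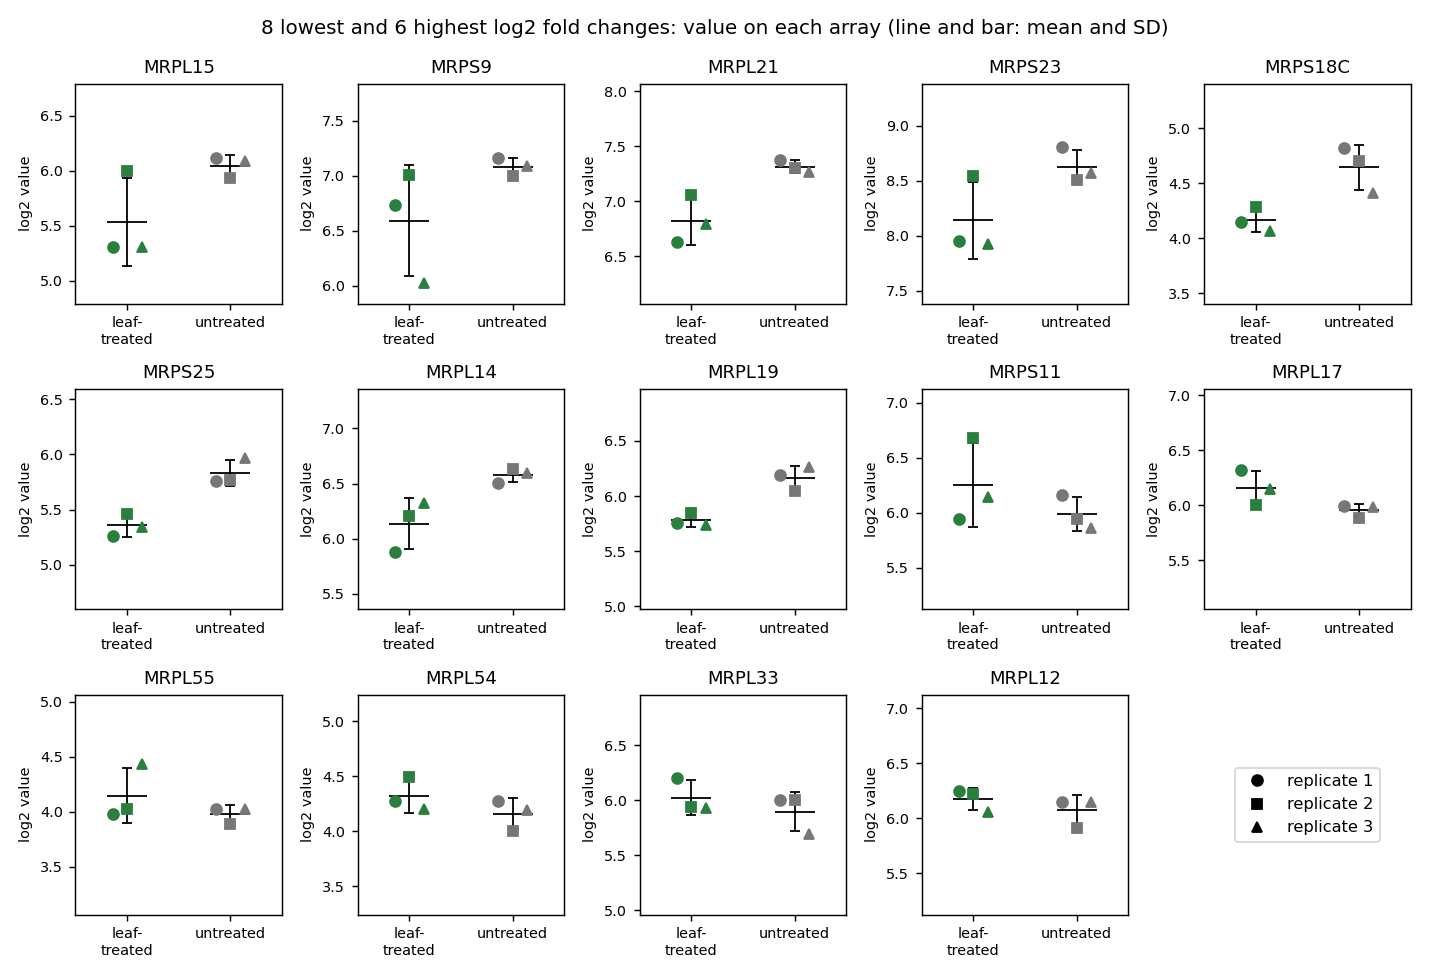
Log2 value (y axis) on each array of the 8 members with the lowest and the 6 with the highest log2 fold change, leaf-treated in green on the left and untreated in grey on the right of each panel. Symbols are replicates 1, 2 and 3, and the line and bar are the mean and SD of 3 arrays. MRPL21, MRPS18C, MRPS25, MRPL14 and MRPL19 have every leaf-treated point below every untreated point, MRPL17 has every leaf-treated point above, and the other panels overlap.

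Of the 15 members lower at an unadjusted p under 0.05, 7 are described above. The other 8, named after their values were seen, were MRPL1, MRPS26, MRPL30, MRPL47, MRPL37, MRPS5, MRPL40 and MRPL35, with log2 fold changes between -0.36 (MRPL1) and -0.18 (MRPL35). MRPL1, the counterpart of the protein that forms the mobile L1 stalk near the exit site for spent tRNA, measured 7.01, 7.20 and 7.21 in leaf-treated cells and 7.62, 7.58 and 7.31 in untreated cells without overlap (log2 fold change -0.36 ± 0.11 SE, limma adjusted p = 0.469). MRPS5, the counterpart of a small subunit protein near the messenger's entry, measured 7.22, 7.10 and 6.83 in leaf-treated cells and 7.31, 7.38 and 7.31 in untreated cells, again without overlap (log2 fold change -0.28 ± 0.11 SE, limma adjusted p = 0.507). Across the 15, the groups did not overlap in 10 and overlapped in 5 (MRPL15, MRPL30, MRPL37, MRPL47 and MRPS23).

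Counted over all members, every leaf-treated array was below every untreated array in 15 (20.5%), against 7.41% of all clusters, and above in 1 (1.37%), against 6.14%. Such separation was also found in related gene lists, whose counts are given further below. Besides the 10 just mentioned, the separated members were MRPL22, MRPL52, MRPL58, MRPS10 and MRPS27, each with an unadjusted p over 0.05, also named after their values were seen. MRPL58 encodes the peptidyl-tRNA hydrolase that is built into the ribosome. It measured 8.15, 8.04 and 7.98 in leaf-treated cells and 8.18, 8.30 and 8.19 in untreated cells (log2 fold change -0.17 ± 0.07 SE, limma adjusted p = 0.513).

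MRPL14, MRPL21 and MRPS25 were lower at an unadjusted p under 0.05 in all 15 distinct fits, the fit above included (using the symbols as printed left that fit as it was). MRPL19 and MRPS18C were so in 14 and missed it when leaf-treated array 2 was the only leaf-treated array. The other 10 were so in 6 to 11 fits. All fits drew on the same 6 arrays, and the 15 members were picked by the first of them. The counts are therefore not a replication, and the like count over all clusters was not made.

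The 11 members with positive values were less far from 0. MRPS11, the counterpart of a protein on the platform of the small subunit, had the highest log2 fold change. It measured 5.95, 6.68 and 6.14 in leaf-treated cells and 6.16, 5.95 and 5.87 in untreated cells, so that leaf-treated array 2 stood above all others and array 1 equalled an untreated array (log2 fold change 0.27 ± 0.19 SE, limma adjusted p = 0.621). MRPL17, a conserved protein near the exit of the nascent chain tunnel, was the 1 member with every leaf-treated array above every untreated one. Its values were 6.32, 6.01 and 6.15 in leaf-treated cells and 5.995, 5.89 and 5.98 in untreated cells, 1.15-fold higher in leaf-treated cells (log2 fold change 0.20 with a standard error of 0.09, limma adjusted p = 0.514).

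MRPL54 and MRPL55, both added in mitochondria, had log2 fold changes of 0.16 and 0.17. MRPL54 measured 4.27, 4.50 and 4.20 in leaf-treated cells and 4.27, 4.005 and 4.20 in untreated cells, and MRPL55 measured 3.98, 4.03 and 4.43 in leaf-treated cells and 4.03, 3.89 and 4.03 in untreated cells. In MRPL55 leaf-treated array 3 alone was above the untreated range. MRPL33, counterpart of a small bacterial protein, measured 6.20, 5.93 and 5.93 in leaf-treated cells and 5.997, 5.997 and 5.69 in untreated cells. None of the 3 reached an unadjusted p of 0.05 (limma adjusted p = 0.596 for MRPL54, adjusted p = 0.643 for MRPL55 and adjusted p = 0.695 for MRPL33).

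The stalk of the large subunit, where translation factors that use GTP dock, was measured through MRPL10, MRPL11 and MRPL12. MRPL12, present in several copies on the stalk, measured 6.25, 6.22 and 6.06 in leaf-treated cells and 6.15, 5.91 and 6.15 in untreated cells (log2 fold change 0.10 ± 0.10 SE, limma adjusted p = 0.683). MRPL10, which anchors MRPL12, measured 6.11, 6.31 and 5.70 in leaf-treated cells and 6.09, 6.27 and 6.08 in untreated cells (log2 fold change -0.10 ± 0.16 SE, limma adjusted p = 0.808). Its sign rested on leaf-treated array 3, and without that array the value was 0.07. MRPL11 at the base of the stalk measured 5.95, 5.89 and 6.01 in leaf-treated cells and the same value, 5.91, on all 3 untreated arrays (log2 fold change 0.04 ± 0.06 SE, limma adjusted p = 0.811). With arrays centred on their medians, MRPL11 stood at -0.02. The stalk genes therefore had values on both sides of 0, all with overlapping groups.

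MRPS12 belongs to the decoding centre, where codon and anticodon are matched. It was the dimmest member and measured 3.44, 3.32 and 3.17 in leaf-treated cells and 3.32 on all 3 untreated arrays. Without leaf-treated array 3 its log2 fold change of -0.01 turned to 0.06. The olfactory receptor genes, which liver cells are not known to use, served as a guide to background: 95% of their 357 clusters lay below a mean of 3.28, and all 73 members had a mean above that.

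Human cells have 3 paralogues of the bacterial S18 protein, of which MRPS18A sits in the large subunit and MRPS18B and MRPS18C sit in the small one. MRPS18A measured 6.49, 6.63 and 6.17 in leaf-treated cells and 6.66, 6.72 and 6.57 in untreated cells (log2 fold change -0.22 ± 0.13 SE, limma adjusted p = 0.557). MRPS18B measured 7.43, 7.60 and 7.23 in leaf-treated cells and 7.56, 7.67 and 7.43 in untreated cells (log2 fold change -0.13 ± 0.12 SE, limma adjusted p = 0.673). All 3 paralogues had negative values, and only MRPS18C, at -0.48, had groups that did not overlap. The differences between paralogues were not tested.

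The leaf-treated arrays did not behave alike. Relative to the untreated mean of each gene, the members' median deviation was -0.16, -0.05 and -0.24 on leaf-treated arrays 1, 2 and 3, and 0.04, -0.06 and 0.00 on untreated arrays 1, 2 and 3. Leaf-treated arrays 1, 2 and 3 had 59, 47 and 62 members below that mean. Of all 19291 clusters, 9421, 9305 and 9668 were below it on the same arrays. Most clusters are dimmer than the members, and these counts were not made by level. Leaf-treated array 2 lay within the range of the untreated arrays for 38 members (52.1%, against 51.0% of all clusters). In 48 members (65.8%) leaf-treated array 2 was the highest of the leaf-treated arrays, against 40.6% of all clusters. Leaf-treated arrays 1 and 3 were both below every untreated array in 40 members (54.8%, against 19.7%), among them all 15 that were lower at an unadjusted p under 0.05. With leaf-treated array 2 as the only leaf-treated array, the members' median was -0.05, 7 members were lower and 3 were higher at an unadjusted p under 0.05 (against 4.46% and 8.15% of all clusters), and that fit assumes that the single array varies like the untreated ones. Spread was larger among leaf-treated arrays, with a median SD over the members of 0.16 in leaf-treated cells and 0.10 in untreated cells. Over all clusters the median SD was also larger, at 0.135 in leaf-treated cells and 0.087 in untreated cells.

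**Figure D3:**
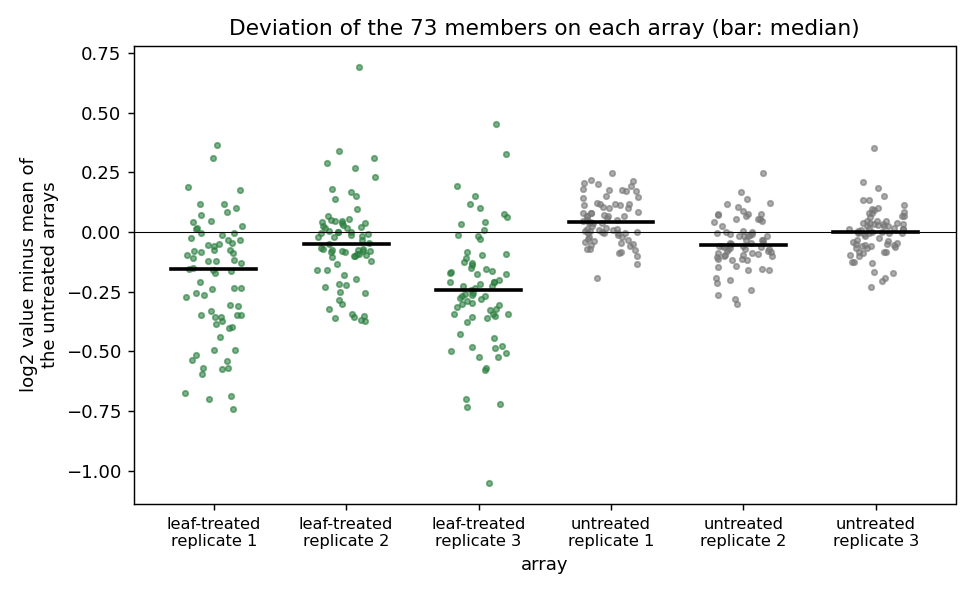
Deviation of each of the 73 members from the mean of the untreated arrays (y axis, log2) on each of the 6 arrays (x axis), with leaf-treated arrays in green and untreated arrays in grey and a bar at the median. Medians are -0.16, -0.05 and -0.24 on leaf-treated arrays 1, 2 and 3, whereas the untreated arrays lie between -0.06 and 0.04.

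The same 2 arrays differed over the whole table. Between the lower and upper quartile of all tested clusters, leaf-treated arrays 1 and 3 ran from 3.14 to 5.19 and from 3.14 to 5.18, while leaf-treated array 2 ran from 3.05 to 5.35 and the untreated arrays from 3.03 to 3.08 at the lower and from 5.26 to 5.34 at the upper quartile. The 8 measured HepG2 and hepatocyte markers were bright on all arrays (ALB, serum albumin, 10.86 to 11.03 in leaf-treated and 10.90 to 11.21 in untreated cells). Of markers of other cells, the 5 for fibroblasts had mean levels of 3.22 to 3.40 in leaf-treated and 3.14 to 3.27 in untreated cells, and the 4 measured of 5 for leukocytes 4.85 to 5.01 in leaf-treated and 4.74 to 4.87 in untreated cells. The leukocyte mean rested on LYZ, lysozyme, at 10.5 to 10.6 in leaf-treated and 10.3 to 10.6 in untreated cells, while PTPRC, which marks all white blood cells, measured 2.48 to 2.55 in leaf-treated and 2.50 to 2.64 in untreated cells. The 4 measured of 7 squamous epithelial markers had a mean level of 4.20 to 4.45 in leaf-treated and 4.11 to 4.19 in untreated cells, highest on leaf-treated arrays 1 and 3, and 0 of the 4 had an unadjusted p under 0.05. KRT5, KRT14 and KRT16 followed that order. SFN, the brightest of the 4, was highest on leaf-treated array 2, at 5.70, 6.10 and 5.74 in leaf-treated and 5.73, 5.93 and 5.68 in untreated cells. The part of these array differences in the members' values was not tested.

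Brighter clusters were lower in leaf-treated cells in general. A mean level under 4 was found for 10817 of the 19291 clusters but for 3 of the 73 members. Among all clusters the median log2 fold change was 0.05 below a mean level of 4 and -0.12 between 7 and 8. Set beside clusters of like level, the members' median was -0.07 against -0.0041 from 4 to 5 (15 members), -0.21 against -0.07 from 5 to 6 (16 members), -0.16 against -0.12 from 6 to 7 (17 members), -0.21 against -0.12 from 7 to 8 (14 members) and -0.15 against -0.11 from 8 upward (8 members). Lower at an unadjusted p under 0.05 were 0 of 3 members below 4 (against 1.11% of all clusters there), 1 of 15 from 4 to 5 (6.01%), 4 of 16 from 5 to 6 (11.2%), 3 of 17 from 6 to 7 (16.5%), 6 of 14 from 7 to 8 (19.0%) and 1 of 8 from 8 upward (18.7%). Negative values were found for 2 of 3 members below 4 (against 33.1% of all clusters there), 10 of 15 from 4 to 5 (51.2%) and 14 of 16 from 5 to 6 (65.3%). From 6 to 7 they were found for 14 of 17 (73.9%), from 7 to 8 for 14 of 14 (77.7%) and from 8 upward for 8 of 8 (78.0%). After quantile normalization the medians of all clusters lay between -0.02 and 0.00 in every bin, and those of the members between -0.13 and -0.04. Negative were then 56 of 73 members, and 49.2% to 55.1% of all clusters in the bins. The members lower at an unadjusted p under 0.05 were then 0 of 3, 1 of 15, 3 of 16, 1 of 17, 1 of 14 and 1 of 8 in the same order of bins, against 2.7%, 8.02%, 8.42%, 10.7%, 10.2% and 7.84% of all clusters. No test was made of these differences, and the bins were chosen after the data had been seen. Members with separate groups, or with leaf-treated arrays 1 and 3 below every untreated array, were not counted by level.

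**Figure D4:**
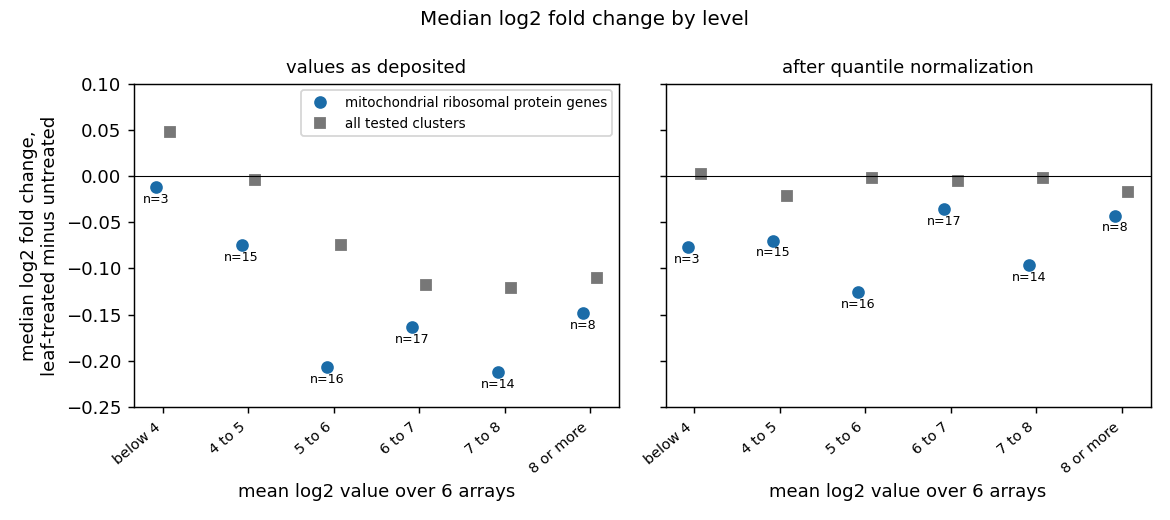
Median log2 fold change (y axis, leaf-treated minus untreated) in bins of the mean log2 value over 6 arrays (x axis), for the members (blue circles, number of members given) and all tested clusters (grey squares), with values as deposited on the left and after quantile normalization on the right. As deposited, both sets lie lower in the brighter bins, with members from -0.21 to -0.01. After quantile normalization all clusters lie near 0 and members from -0.13 to -0.04.

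Other genes of the mitochondrial translation pathway were read from lists chosen with earlier results of these data known, and none had an adjusted p under 0.05. For the counts in this and the following lists, 46.9% of all clusters were negative. At an unadjusted p under 0.05, 5.9% of all clusters were lower and 3.87% higher. The shares negative and lower were larger among brighter clusters, as given above. Of 5 ribosomal proteins with other symbols, 4 were measured, with a median of -0.16, and 1 was lower at an unadjusted p under 0.05. This was CHCHD1, a small subunit protein, with 4.17, 3.97 and 3.72 in leaf-treated cells and 4.27, 4.33 and 4.41 in untreated cells (log2 fold change -0.38 ± 0.12 SE, limma adjusted p = 0.485). PTCD3, an RNA-binding protein of the small subunit, measured 5.58, 5.83 and 5.60 in leaf-treated cells and 5.77, 5.83 and 5.91 in untreated cells (log2 fold change -0.17 ± 0.09 SE, limma adjusted p = 0.545).

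The list of translation factors also holds genes with other roles, such as SLIRP, LRPPRC and OXA1L. It had the lowest median of the lists, -0.23 over 16 of 18 genes, with 14 negative, 5 lower and 0 higher at an unadjusted p under 0.05. MTIF2, the initiation factor that brings the first tRNA to the ribosome, measured 8.21, 8.45 and 8.32 in leaf-treated cells and 8.82, 8.66 and 8.67 in untreated cells (log2 fold change -0.39 ± 0.09 SE, limma adjusted p = 0.383). SLIRP, partner of LRPPRC in stabilising mitochondrial messengers, measured 7.93, 7.54 and 7.67 in leaf-treated cells and 8.24, 8.11 and 8.24 in untreated cells (log2 fold change -0.49 ± 0.11 SE, limma adjusted p = 0.383). In both genes the groups did not overlap, leaf-treated array 2 included.

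The list of synthetases that charge mitochondrial tRNAs also holds GATB, GATC and QRSL1, subunits of an amidotransferase. It stood nearer to 0, with a median of -0.09 over 21 of 22 genes, 14 negative, 1 lower and 1 higher. The higher one was VARS2, for valine, at 4.22, 3.84 and 4.12 in leaf-treated cells and 3.77, 3.72 and 3.87 in untreated cells (log2 fold change 0.27 ± 0.11 SE, limma adjusted p = 0.507). NARS2, for asparagine, was the lower one, at 4.50, 4.82 and 4.55 in leaf-treated cells and 5.07, 4.82 and 4.83 in untreated cells (log2 fold change -0.28 ± 0.12 SE, limma adjusted p = 0.51).

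Factors that assemble the ribosome or modify its RNA had a median of -0.12 over 32 of 33 genes, with 27 negative, 7 lower and 0 higher. MTERF3, a protein needed for large subunit assembly in mice, measured 4.02, 3.86 and 3.63 in leaf-treated cells and 4.48, 4.51 and 4.21 in untreated cells (log2 fold change -0.57 ± 0.13 SE, limma adjusted p = 0.383). TRMT61B, which methylates mitochondrial RNA, measured 5.78, 5.72 and 5.46 in leaf-treated cells and 6.26, 5.97 and 5.98 in untreated cells (log2 fold change -0.42 ± 0.12 SE, limma adjusted p = 0.469). These groups did not overlap in either gene.

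For mitochondrial transcription and DNA maintenance the median was -0.09 over 17 genes, with 13 negative, 4 lower and 0 higher. PNPT1, a polynucleotide phosphorylase, measured 8.49, 8.37 and 8.51 in leaf-treated cells and 8.85, 8.69 and 8.73 in untreated cells (log2 fold change -0.30 ± 0.08 SE, limma adjusted p = 0.411). SUPV3L1, the helicase that works with it in RNA decay, measured 6.11, 6.57 and 5.99 in leaf-treated cells and 6.81, 6.79 and 6.71 in untreated cells (log2 fold change -0.55 ± 0.15 SE, limma adjusted p = 0.45). Both had separate groups.

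Regulators of mitochondrial biogenesis had a median of -0.07 over 12 genes, 6 of them negative, 1 lower and 0 higher. GABPA, the ETS family factor named above, measured 6.89, 7.21 and 7.03 in leaf-treated cells and 7.52, 7.20 and 7.33 in untreated cells (log2 fold change -0.31 ± 0.12 SE, limma adjusted p = 0.507). Its groups overlapped through leaf-treated array 2. The cluster was taken by gene symbol alone, and its position in the genome was not checked. HCFC1, a coactivator, measured 5.93, 6.32 and 6.10 in leaf-treated cells and 6.62, 6.32 and 6.32 in untreated cells (log2 fold change -0.30 ± 0.13 SE, limma adjusted p = 0.513). Proteases and chaperones of mitochondria had a median of -0.12 over 18 genes, with 16 negative, 2 lower and 0 higher. HSPE1, the small partner of the chaperonin HSPD1, measured 8.55, 8.77 and 8.55 in leaf-treated cells and 9.36, 9.01 and 8.98 in untreated cells (log2 fold change -0.49 ± 0.13 SE, limma adjusted p = 0.411), and MIPEP, which trims imported proteins, measured 5.44, 5.79 and 5.62 in leaf-treated cells and 6.01, 5.90 and 5.87 in untreated cells (log2 fold change -0.31 ± 0.10 SE, limma adjusted p = 0.5).

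Cytoplasmic ribosomal protein genes, 66 in number, had a median of -0.13, with 57 negative and 10 lower at an unadjusted p under 0.05. Nuclear-encoded subunits of oxidative phosphorylation, 78 in number, had a median of -0.11, with 60 negative, 12 lower and 1 higher. Every leaf-treated array was below every untreated array in 18 of the 66 cytoplasmic genes and in 14 of the 78 subunit genes. The opposite separation was found in 2 genes of each list. Of all clusters, 7.41% were separated as lower and 6.14% as higher. On the leaf-treated arrays 1, 2 and 3 the cytoplasmic list deviated by a median of -0.10, -0.06 and -0.17 from the untreated mean, and the oxidative phosphorylation list by -0.07, -0.02 and -0.17. Thus leaf-treated array 2 was nearest to the untreated level in these lists too. The members' difference from either list was not tested.

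**Figure D5:**
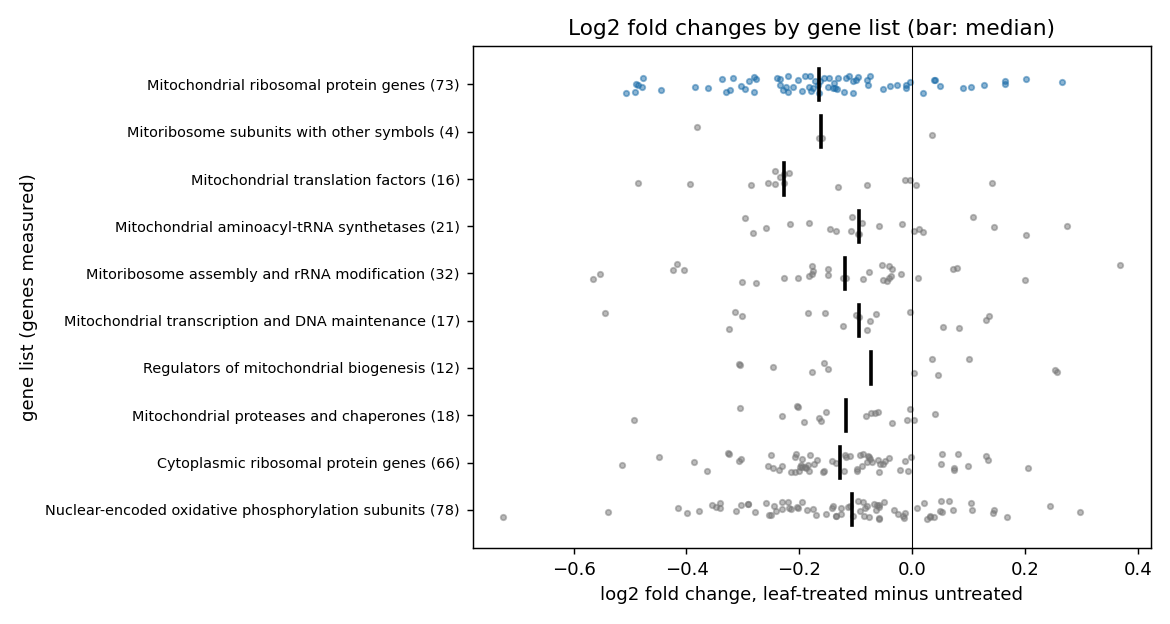
Log2 fold change (x axis, leaf-treated minus untreated) of each measured gene in the members (blue) and 9 comparison lists (grey), with the number of genes in brackets and a black bar at each median. All 10 medians lie below 0, from -0.23 for translation factors to -0.07 for regulators of biogenesis, and the points of every list spread to both sides of 0.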

How the data were processed

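The values deposited by the authors for 6 Affymetrix Human Gene 1.0 ST arrays are on a log2 scale, in 1 table. GCOS, Partek and RMA are named in the submitters' processing notes, with versions and options not given in the sources used here. RMA usually comprises background correction, normalization between arrays and a median-based summary of probes. The quartiles of the deposited arrays differed, as given above. Of 33297 rows, 4468 were at 0 on all arrays and left out, and rows with several symbols (1735) or none (7803) were not tested. Symbols came from GEO's platform annotation, updated to GRCh38.p14 RefSeq.

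All 19291 remaining clusters were fitted with limma 3.58.1 in R 4.3.3 (lmFit and eBayes, no covariate, Benjamini-Hochberg adjustment). The fit was also run on simulated arrays with independent noise in each cluster and changes larger than any member's. Those arrays lacked the array-wide differences described above, so that run says nothing about them. The labels call the replicates biological and say nothing of separate cultures, so the p-values rest on the spread among these 6 samples alone, which may be technical, and 3 arrays a group limit the precision. Members and lists were chosen with earlier results of these data known. Genes named are the 8 lowest and 6 highest log2 fold changes, the S18 paralogues, the stalk proteins, MRPS12 and the 2 smallest p-values of each pathway list. Equal values on 2 or more arrays occurred in 21 members (28.8%, against 41.1% of all clusters), which a median-based summary can give. Alternatives were an analysis of variance, array centring, quantile normalization, a filter on dim clusters, an intensity trend with robust fit, the mean of a gene's clusters, the symbols as printed, a replicate block and leaving out each array.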

Additional observations from a re-analysis of the deposited data

How the results depend on the processing

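Under all 15 alternatives, 0 members had an adjusted p under 0.05 and the members' median stayed negative. The count of members lower at an unadjusted p under 0.05, 15 as reported, was 7 by analysis of variance without moderation, 23 with arrays centred on their medians (which moved the median of all clusters to -0.05 and that of the members to -0.23), 7 after quantile normalization and 7 with leaf-treated array 2 as the only leaf-treated array, an alternative chosen after seeing the data. The count higher at that threshold, 0 as reported, was 3 after quantile normalization and 3 with leaf-treated array 2 alone, where the members' median was -0.0517. Leaving out each array in turn gave 6 to 26 lower members, 0 to 1 higher members and medians of -0.22 to -0.12, with the lowest count without untreated array 1 and the highest without leaf-treated array 2. The cause was not tested. With the replicate number as a block, 10 members were lower. That block left every member's log2 fold change as in the fit reported. So did the analysis of variance, the dim filter, the intensity trend fit, the mean of a gene's clusters and the symbols as printed. Under these alternatives neither the members' median nor any direction could change. Same-numbered arrays correlated at -0.11, -0.18 and 0.12 in their deviations from the group means, and not every array correlated best with its own number. Deviations within groups of 3 arrays cannot decide whether the numbers pair the samples, and the labels do not say.

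Among the 19 named members, 278 of the log2 fold changes under alternatives kept their direction, including those that could not change. Of the rest, 1 (MRPS12 with leaf-treated array 2 alone) was at 0 and 6 changed sign. Of the 6, MRPL11 was at -0.0235 after centring and at -0.022 with leaf-treated array 2 alone, and with that array alone MRPS18B was at 0.0464 and MRPL10 at 0.166. Leaving out each array in turn, MRPL10 ranged from -0.239 (without leaf-treated array 2) to 0.0656 (without leaf-treated array 3) and MRPS12 from -0.0761 (without leaf-treated array 1) to 0.0585 (without leaf-treated array 3). Signal near background limits MRPS12 most, since its values lie closest to those of olfactory receptor genes.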
